A study of Homo sapiens with 27 samples.

Results

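The insertion of piggyBac-type transposons was examined in 6 very long protein-coding genes that lie at common fragile sites: FHIT, WWOX, MACROD2, IMMP2L, NAALADL2 and PDE4D. The genes were taken by name, and an insertion site was assigned to a gene when it fell within that gene's RefSeq bounds on GRCh38. They are 6 of 19974 protein-coding genes and together span 8497 kb, which is 0.280% of the 3030 Mb covered by the peaks. All libraries came from HCT116, an established human colorectal carcinoma line, transfected with a self-reporting transposon, which is transcribed outward into the flanking DNA so that its position can be read from RNA. The cells were kept in puromycin at 3 µg/ml for 2 weeks, and RNA rather than genomic DNA was sequenced, so an insertion that gave no transcript could not be listed.

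The 27 libraries formed 9 groups of 3. In 4 of them the wild-type transposon was delivered with a form of piggyBac. The transposase was piggyBac in WT_PB and hyperactive piggyBac in WT_hyPB. It was the re-engineered enzyme in WT_rePB, and the form both re-engineered and hyperactive in WT_rehyPB. A short transposon was delivered with wild-type piggyBac (short_PB) or the hyperactive form (short_hyPB), and a symmetric transposon with the re-engineered form (sym_rePB) or the re-engineered hyperactive form (sym_rehyPB). The last group, WT_PBat, is labelled as wild-type transposon with piggyBat, and the labels do not say whether its transposon is the one used with piggyBac. The labels do not define the re-engineered, short and symmetric forms, and they do not say whether replicates came from separate transfections. The p-values thus describe these libraries only. In the main model the spread between libraries was set to no less than counting error. For the genes studied here it lay at that floor, so their p-values in that model rest on counting error. No library without a transposase was analysed here.

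The 12 libraries of the first 4 groups held 336323 to 570354 distinct sites each and are called deep. The other 15 held 2814 to 9212 and are called shallow. Depth cannot be told apart from the transposon form in the short and symmetric comparisons, nor from the transposase in the comparison of WT_PBat with WT_PB. WT_hyPB replicates 1 and 2 shared 311492 sites, 75.4% of replicate 1 and 76.3% of replicate 2, whereas replicates 1 and 3 shared 28.6% and 26.1%. In WT_PBat 52.5% of the replicate 1 sites were also in replicate 3 (42.5% of the latter), and 9.23% were in replicate 2 (9.61%). Within the 6 genes the shared part of WT_hyPB replicates 1 and 2 ran from 66.1% of the replicate 1 sites in WWOX to 81.5% in MACROD2. These libraries are not independent. Averaging each such pair into 1 library changed no call of a member gene.

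Common fragile sites are chromosome regions that form gaps and breaks in metaphase when replication is slowed. Many of them coincide with single genes of great length, whose introns hold most of the sequence, that replicate late and that are recurrently deleted in tumours. piggyBac inserts at the sequence TTAA and is known to favour open, transcribed chromatin. FHIT encodes a hydrolase of diadenosine polyphosphates, and PDE4D a phosphodiesterase that degrades cyclic AMP. WWOX encodes an oxidoreductase with WW domains, and MACROD2 an enzyme that removes ADP-ribose from proteins. IMMP2L encodes a subunit of the inner mitochondrial membrane peptidase, and NAALADL2 a protein related to the glutamate carboxypeptidases.

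FHIT lies at chr3:59747277-61251452 on the minus strand (1504 kb) and PDE4D at chr5:58969038-60522128 on the minus strand (1553 kb). WWOX lies at chr16:78099654-79212667 on the plus strand (1113 kb) and MACROD2, the longest, at chr20:13995516-16053197 on the plus strand (2058 kb). IMMP2L lies at chr7:110662644-111562492 on the minus strand (900 kb), and NAALADL2 at chr3:174440982-175810548 on the plus strand (1370 kb). WWOX overlaps MAF, MACROD2 overlaps FLRT3 and IMMP2L overlaps LRRN3 in the annotation, and sites in the overlap were counted for the long gene. Exon bounds were not used here, so sites were not split into exonic and intronic.

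Site density was expressed relative to the library, as sites per kb in the gene divided by sites per kb of that library over chromosomes 1 to 22 and X, so that 1 is the genome mean. The counts were not corrected for DNA copy number in these cells or for how well reads map. Whether low values follow either of these was not tested. Over the 12 deep libraries the mean relative density was 1.18 ± 0.12 (SD, n = 12) in NAALADL2, 0.995 ± 0.12 in IMMP2L, 0.820 ± 0.063 in PDE4D, 0.755 ± 0.062 in FHIT, 0.356 ± 0.057 in WWOX and 0.0894 ± 0.017 in MACROD2. The genes thus ran from just above the genome mean to 0.0894 of it, although all 6 belong to the same class of locus. NAALADL2 (1.03 to 1.40) overlapped IMMP2L (0.758 to 1.19), IMMP2L overlapped PDE4D (0.754 to 0.927), and PDE4D overlapped FHIT (0.671 to 0.864). WWOX (0.264 to 0.453) overlapped neither FHIT nor MACROD2 (0.0569 to 0.110). WWOX had rank 5 and MACROD2 rank 6 in each of the 12 deep libraries.

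MACROD2 held few sites for its length in any library. It held 28, 24 and 20 sites in the WT_PB libraries, 38, 27 and 35 in WT_rePB, 27, 27 and 34 in WT_hyPB and 13, 18 and 31 in WT_rehyPB. The 4 groups overlapped. The pooled 322 sites compare with 3581 at the genome mean, a relative density of 0.0899 with an exact 95% Poisson interval of 0.0804 to 0.100 that covers counting error only. The height minimum also bears on the level: when peaks of height 10 or more were counted, the WT_PB mean fell from 0.0887 to 0.0585, and those of the 4 groups came to 0.660-fold to 0.742-fold of their values.

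WWOX held 70, 49 and 70 sites in the WT_PB libraries, 77, 72 and 62 in WT_rePB, 56, 49 and 44 in WT_hyPB and 47, 37 and 54 in WT_rehyPB. Its relative density was 0.424 ± 0.036 in WT_PB, 0.345 ± 0.035 in WT_rePB, 0.320 ± 0.053 in WT_hyPB and 0.333 ± 0.053 in WT_rehyPB (SD, n = 3 each). All 12 deep libraries were below the genome mean in this gene.

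FHIT held 112 to 206 sites per deep library and PDE4D 134 to 271. The FHIT density was 0.813 ± 0.050 in WT_PB, 0.743 ± 0.020 in WT_rePB, 0.717 ± 0.021 in WT_hyPB and 0.747 ± 0.10 in WT_rehyPB. For PDE4D it was 0.808 ± 0.095, 0.882 ± 0.043, 0.778 ± 0.031 and 0.812 ± 0.039 in the same order. Both genes were below the genome mean in 12 of 12 deep libraries.

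IMMP2L had relative densities of 1.08, 1.02 and 0.992 in the WT_PB libraries, 1.19, 1.03 and 1.16 in WT_rePB, 0.840, 0.907 and 0.758 in WT_hyPB, and 1.03, 0.984 and 0.953 in WT_rehyPB. The WT_hyPB libraries lay below the WT_PB libraries without overlap, while WT_rehyPB and WT_rePB overlapped at 1.03. NAALADL2 had 1.24, 1.40 and 1.26 in WT_PB, 1.21, 1.30 and 1.28 in WT_rePB, 1.12, 1.06 and 1.06 in WT_hyPB, and 1.03, 1.13 and 1.07 in WT_rehyPB. In NAALADL2 both pairs with and without the hyperactive form were separate, and each of the 12 libraries was above the genome mean. That level depends on the height minimum and the scale. With peaks of height 10 or more the 4 NAALADL2 group means ran from 0.863 to 1.11, and relative to protein-coding gene bodies from 0.876 to 1.07. Of the 24 group means of the 6 genes, 17 moved by more than the SD between replicates in the first case and 20 in the second.

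**Figure D1:**
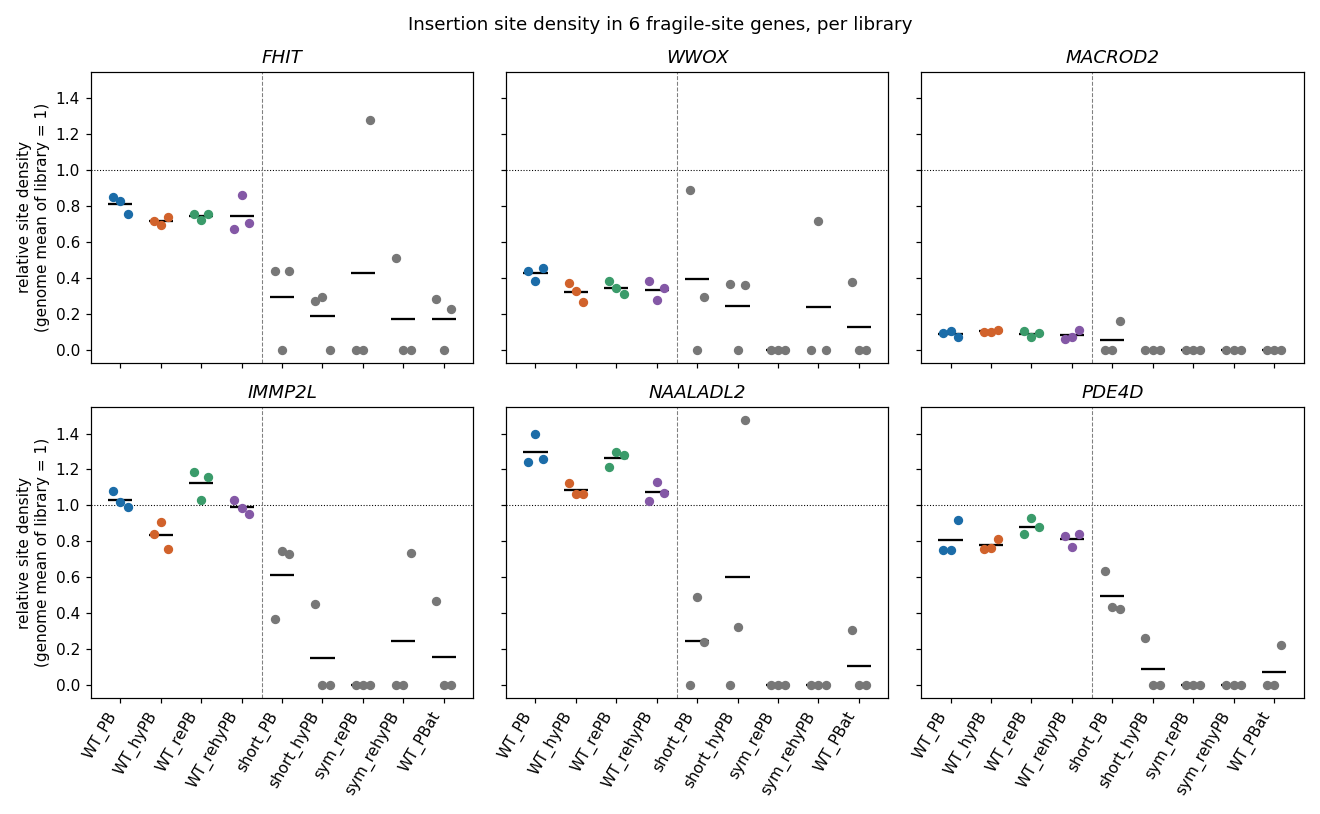
Relative site density (vertical axis, genome mean of the library = 1, dotted line) of each gene in each of the 27 libraries, grouped on the horizontal axis. Points are libraries, black bars are group means, and the dashed line separates the deep groups (left) from the shallow ones. MACROD2 stays between 0.0569 and 0.110 in the deep libraries, and NAALADL2 between 1.03 and 1.40.

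Most long genes lay below the genome mean. Of the 314 protein-coding genes of 500 kb and more, 70.4% had a mean relative density under 1 in the deep libraries, and their median was 0.649. Counted from the densest, NAALADL2 ranked 65th, IMMP2L 95th, PDE4D 126th, FHIT 134th, WWOX 213th and MACROD2 261st. A list of 18 other long genes at reported fragile sites had a median of 0.747, from 0.00846 in AUTS2 to 1.40 in GMDS, and 14 of the 18 were below 1. The median of the 6 genes was 0.788, with 5 of 6 below 1.

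**Figure D2:**
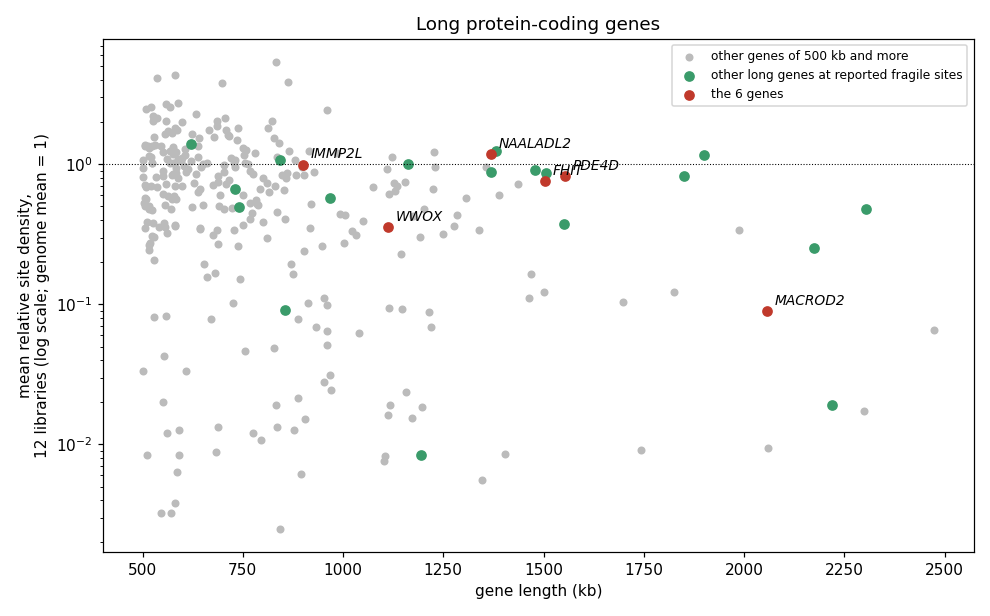
Mean relative site density over the 12 deep libraries (vertical axis, log scale, genome mean = 1, dotted line) against gene length in kb for the 314 protein-coding genes of 500 kb and more. The 6 genes (red) and the 18 other listed fragile-site genes (green) lie among the grey points, with MACROD2 at 0.0894 and NAALADL2 at 1.18.

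Within the genes the sites were unevenly spread. Each gene was cut into steps of 200 kb from its lower coordinate, and the density of each step was set against the genome mean in the same way. FHIT had its densest step at its 5′ end, 1.67 ± 0.25 (SD, n = 12), and its least dense step 904 to 1104 kb from that end, 0.412 ± 0.12. The 3′ end of FHIT returned to 1.03 ± 0.15, so the profile was U-shaped. WWOX was densest in its first 200 kb, 0.879 ± 0.15, and between 0.196 and 0.313 in its other 5 steps. MACROD2 was densest in its first 200 kb as well, 0.349 ± 0.10, and fell to 0.0145 ± 0.032 in the step 1400 to 1600 kb from the 5′ end, where the 12 libraries held 5 sites in all. Its 10 steps were all below the genome mean.

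The remaining genes did not share that shape. PDE4D was densest at its 3′ end, 1.59 ± 0.25, and least dense 353 to 553 kb from its 5′ end, 0.276 ± 0.10. NAALADL2 was densest in its middle, 1.67 ± 0.20 at 600 to 800 kb, and lowest at 200 to 400 kb, 0.665 ± 0.15. IMMP2L was densest at 300 to 500 kb, 1.53 ± 0.26, and lowest in its 3′ step, 0.759 ± 0.14. In each gene the densest step exceeded the least dense one in 12 of 12 deep libraries, by 24.0-fold of the means in MACROD2, 5.77-fold in PDE4D, 4.48-fold in WWOX, 4.06-fold in FHIT, 2.51-fold in NAALADL2 and 2.02-fold in IMMP2L. These steps were chosen by their means, so the ratios are descriptive.

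**Figure D3:**
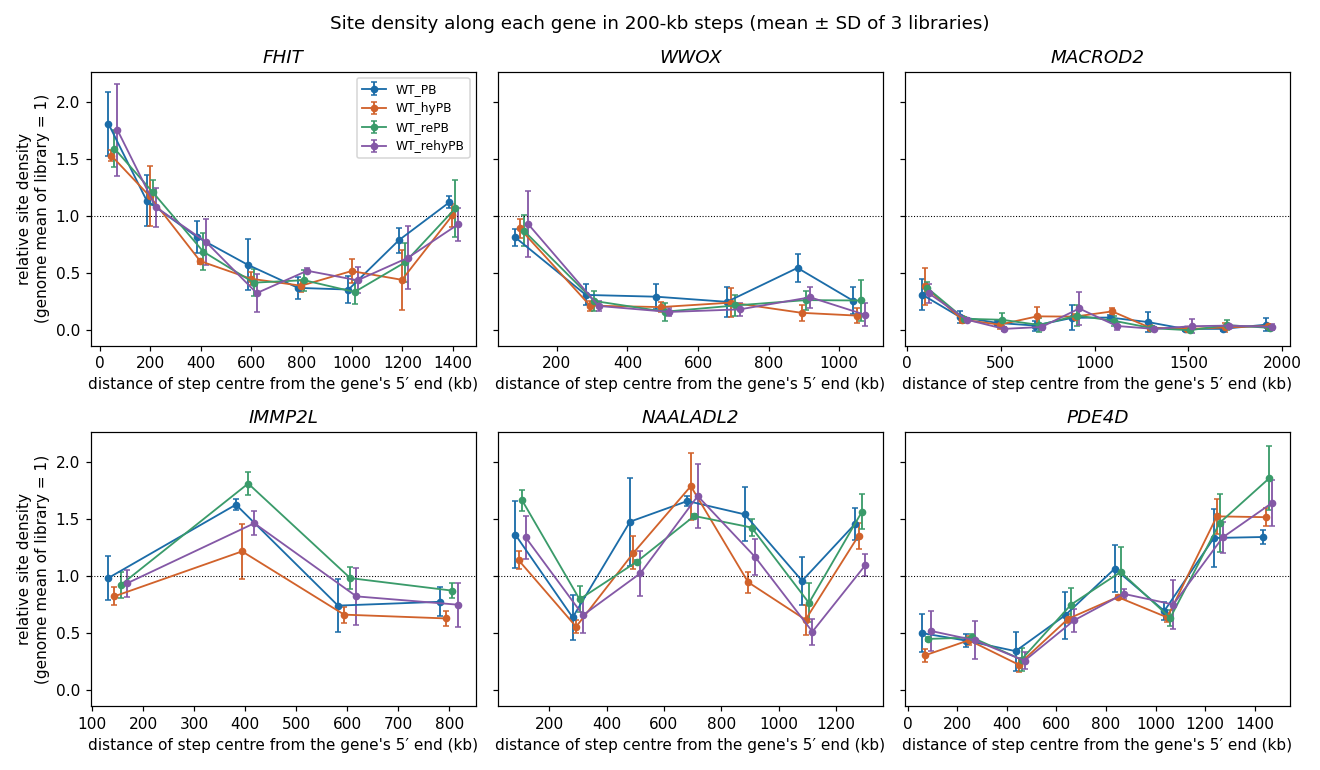
Relative site density (vertical axis, genome mean of the library = 1, dotted line) in 200-kb steps against the distance of the step's centre from the gene's 5′ end in kb. Points are means of 3 libraries with SD bars for the 4 deep groups, set slightly apart sideways. In the means over all 12 libraries FHIT falls from 1.67 to 0.412 and returns to 1.03, and PDE4D rises from 0.276 to 1.59 at its 3′ end.

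The longest stretch without a listed site, over the 12 deep libraries pooled, was 86.0 kb in MACROD2 (chr20:15511031-15597025) and 60.9 kb in WWOX (chr16:78636884-78697750). It was 27.8 kb in FHIT (chr3:60329800-60357611), 15.9 kb in PDE4D, 15.6 kb in NAALADL2 and 11.6 kb in IMMP2L, against a median of 18.5 kb over the 314 long genes. Adding the 15 shallow libraries changed none of these 6 lengths. Copy number and read mapping in these stretches were not examined. Counting peaks of height 10 or more lengthened each of them, to 185.3 kb in MACROD2 (chr20:15645806-15831108, another place), 86.2 kb in WWOX, 33.6 kb in FHIT, 30.6 kb in PDE4D, 21.8 kb in NAALADL2 and 20.7 kb in IMMP2L, against a median of 27.6 kb over the long genes. The MACROD2 stretch was 11.4 times that gene's mean spacing of 7.54 kb, whereas the WWOX stretch was 28.8 times its spacing of 2.11 kb and the FHIT stretch 25.6 times its spacing of 1.09 kb.

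Density was also taken within 5 kb of the transcription starts that RefSeq lists for these genes. It reached 4.39 ± 0.88 at the outer start of WWOX, 3.91 ± 0.88 at that of FHIT and 2.93 ± 1.2 at that of IMMP2L (SD, n = 12). It was 3.95 ± 1.3 at an internal start of NAALADL2, 418 kb into the gene, and 3.51 ± 1.2 at a PDE4D start 1483 kb from the gene's 5′ end. The outer start of MACROD2 had 0.911 ± 0.52, and its internal start, 1201 kb into the gene, had no site within 5 kb in any of the 12 deep libraries. Of the 8 PDE4D starts, 3 had a mean above 1.5 and the lowest was 0.166 ± 0.43. Those 3 include the starts 935.6 and 934.5 kb from the gene's 5′ end (2.01 ± 1.0 and 1.66 ± 1.1), whose windows overlap almost wholly. FHIT has an internal start as well, with 0.831 ± 0.68. The windows at the dense starts held 76 sites over the deep libraries in WWOX, 69 in NAALADL2, 66 in FHIT, 61 in PDE4D and 52 in IMMP2L.

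The target letters at these starts could be read from RefSeq promoter sequences on GRCh38, which run from 250 bases before a start to 50 after it. TTAA, which is its own reverse complement, was the 4-letter sequence at 95.8% to 98.8% of the sites that fell in any of 34961 such windows, by group, and at no more than 0.291% of positions shifted by 1000 bases. Of these windows 46.1% hold a TTAA. The outer windows of FHIT, WWOX, IMMP2L and MACROD2 hold none, so the dense insertion around the first 3 of these starts lay outside the windows, apart from 1 IMMP2L site. Of the 8 sites listed within the members' windows, 7 are given with the 4 target letters in capitals and up to 13 bases on each side, 5′ to 3′ on the strand of the gene, to show what was hit. The PDE4D start at chr5:59587625-59587625 had 3 TTAA in its window, and each of them was hit.
PDE4D chr5:59587752-59587781, minus strand, 6 libraries: gcgagctattcctTTAAccccttttgcttg
PDE4D chr5:59587605-59587634, minus strand, 2 libraries: ggctgctgcagagTTAAtgtacagtaccac
PDE4D chr5:59357088-59357117, minus strand, 1 library: agtgtttctcacgTTAAttatgagataagg
PDE4D chr5:59357122-59357151, minus strand, 1 library: atcagggctatatTTAAaaacaaattttcg
PDE4D chr5:60372805-60372834, minus strand, 1 library: tgaaccagggattTTAAgcacattatcctt
NAALADL2 chr3:174859175-174859204, plus strand, 2 libraries: tgtgaagtacactTTAAtagccatacagtg
IMMP2L chr7:111562645-111562674, minus strand, 1 library: aataatagcttgcTGAAttagtgttgtgtt
The IMMP2L site is not at TTAA. It was listed once, in WT_rehyPB replicate 3, at a height of 11. The PDE4D site in 6 libraries was listed in the 3 WT_PB libraries, WT_hyPB replicate 3 and WT_rePB replicates 2 and 3, at heights of 13 to 50.

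The 250 bases before a start show the contrast between a window with targets and one without. The PDE4D window begins with 1 TTAA and holds another near its middle, both in capitals. The first is the remaining site, listed in 2 libraries. The WWOX window holds no TTAA.
PDE4D chr5:59587626-59587875, minus strand: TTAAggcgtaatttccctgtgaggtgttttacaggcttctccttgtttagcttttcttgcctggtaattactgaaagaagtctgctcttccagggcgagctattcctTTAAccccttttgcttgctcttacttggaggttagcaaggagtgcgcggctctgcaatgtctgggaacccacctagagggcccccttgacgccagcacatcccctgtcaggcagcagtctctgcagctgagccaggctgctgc
WWOX chr16:78099404-78099653, plus strand: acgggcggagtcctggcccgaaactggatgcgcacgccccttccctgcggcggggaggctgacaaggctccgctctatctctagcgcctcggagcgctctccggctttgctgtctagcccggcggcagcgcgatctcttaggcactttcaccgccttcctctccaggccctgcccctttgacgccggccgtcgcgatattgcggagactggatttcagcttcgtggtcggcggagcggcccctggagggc
Within 5 kb of the WWOX start there were nevertheless 76 sites over the deep libraries, against 30 within 5 kb of this PDE4D start.

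Single positions recurred across libraries in every gene. The position listed in most libraries was chr7:111198373-111198376 in IMMP2L (14 libraries, 12 of them deep) and chr3:174441849-174441852 in NAALADL2 (13 libraries), 0.867 kb from that gene's 5′ end. In FHIT it was chr3:59818086-59818089 (13 libraries), in WWOX chr16:78122923-78122926 (12) and in PDE4D chr5:59127527-59127530 (11). In MACROD2 no position was listed in more than 4 libraries. The tallest peak of WWOX was at that same recurrent position, at a height of 110 in WT_PB replicate 2, and elsewhere the tallest peaks were 114 in FHIT, 107 in PDE4D, 102 in NAALADL2, 86 in IMMP2L and 77 in MACROD2.

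The typical peak height and the share of recurrent positions were lower in these genes than over all sites. The median over deep libraries of the median height was 8 in MACROD2, 9 in IMMP2L and NAALADL2, 10 in FHIT and PDE4D and 10.5 in WWOX, against 11 for all sites. Between 16.1% (MACROD2) and 28.4% (NAALADL2) of the distinct positions were listed in 2 or more deep libraries, against 36.1% of all positions. The linked WT_hyPB libraries contribute to these shares, which were not tested.

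The hyperactive effect was the mean of WT_hyPB against WT_PB and of WT_rehyPB against WT_rePB, a test of whether the hyperactive transposase places a different share of its sites in a gene. NAALADL2 was the member that passed. Its site rate fell by 0.24 ± 0.06 on the log2 scale (SE, 0.844-fold), with an adjusted p of 0.0135 in the quasi-Poisson model with Benjamini-Hochberg adjustment over 9414 genes, and the libraries of both pairs did not overlap. This was 1 of 6 members, against a background of 0.489% of genes called, or 0.351% called lower. That background is no like reference, since most genes tested held fewer sites than NAALADL2, which held 2827 in the deep libraries. With a stricter filter of 500 sites and 5 expected per group, 7.26% of 1212 genes were called. IMMP2L had a log2 change of -0.25 ± 0.07 (adjusted p = 0.162) and WWOX of -0.24 ± 0.11 (adjusted p = 0.550). FHIT had -0.09 ± 0.07, PDE4D -0.09 ± 0.06 and MACROD2 0.04 ± 0.16, with adjusted p between 0.771 and 0.973.

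The members' median was -0.16, against 0.01 over all genes tested, and 5 of 6 had a value below 0. Long genes as a set were also lower with the hyperactive form. The median relative density of the 314 genes of 500 kb and more, the 6 included, was 0.703 in WT_PB and 0.604 in WT_hyPB. It was 0.674 in WT_rePB and 0.615 in WT_rehyPB, and these differences were not tested. Of the 18 other fragile-site genes 17 were tested, 15 had values below 0, their median was -0.17 and 2 were called, both lower, DAB1 and ERBB4 (the latter named after its value was seen). Their lowest value was -0.59 in DAB1 and their highest 0.26 in DMD. Limma voom called 2 members, NAALADL2 and IMMP2L, against 1.32% of genes (1.27% with a replicate block, which called 2 members as well). The quasi-Poisson model with the stricter filter of 500 sites and 5 expected per group called the same 2, against 7.26% of 1212 genes. MACROD2, with 322 sites, did not pass that filter. With the linked libraries averaged the NAALADL2 value was -0.25 (adjusted p = 0.0148). The NAALADL2 call was lost with peaks of height 10 or more (log2 change -0.22, adjusted p = 0.453, background 0.224%) and with the tallest sites in equal number (-0.13, 0.817, background 0.109%). It was also lost without WT_PB replicate 2 (0.0720), WT_rehyPB replicate 1 (0.0566) or WT_rehyPB replicate 3 (0.0576).

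The re-engineering effect was the mean of WT_rePB against WT_PB and of WT_rehyPB against WT_hyPB. None of the 6 members was called in the quasi-Poisson model, against a background of 1.14% of genes, and limma voom, another count-based test, called 0 as well (background 3.91%). At an unadjusted p under 0.05 there was 1 member, IMMP2L, with a log2 change of 0.18 ± 0.07 (adjusted p = 0.251). The values of the others were 0.09 ± 0.06 in PDE4D, -0.02 ± 0.06 in NAALADL2, -0.04 ± 0.07 in FHIT, -0.12 ± 0.11 in WWOX and -0.16 ± 0.16 in MACROD2. The 95% interval was -0.13 to 0.09 in NAALADL2 and -0.48 to 0.16 in MACROD2, so the data bound a change in the first more closely than in the second. The members' median was -0.03, against 0.04 over all genes. Of the other fragile-site genes 17 were tested, with a median of -0.03, and 2 were called, both lower, DAB1 and, named after its value was seen, LRP1B.

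**Figure D4:**
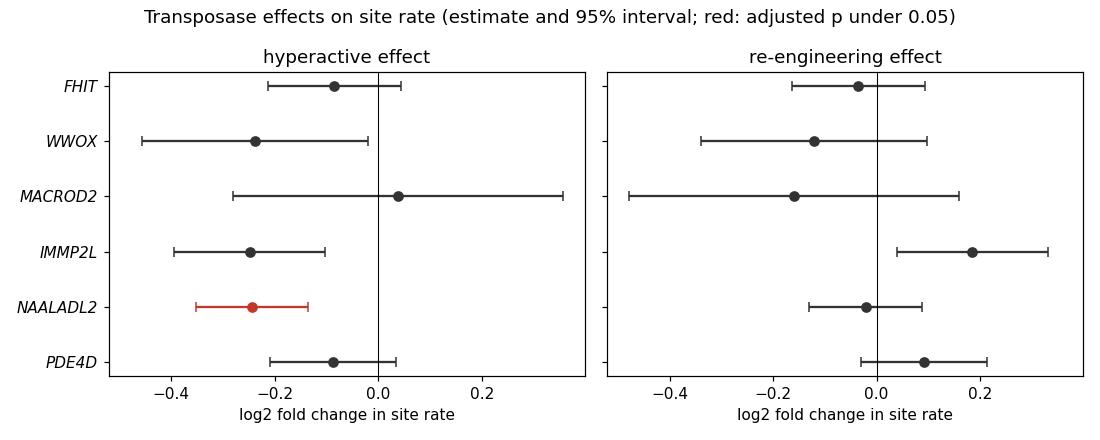
Log2 fold change in site rate (horizontal axis) for the hyperactive effect (left) and the re-engineering effect (right) in each gene. Points are estimates over the 12 deep libraries and bars their 95% intervals, and red marks the gene called after adjustment over all genes, NAALADL2, at -0.24.

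The dependence of the hyperactive effect on re-engineering was tested as an interaction. The quasi-Poisson model and limma voom each called 0 of 6 members, none had an unadjusted p under 0.05, and the backgrounds were 0.0106% and 0.0744% of genes. On simulated data for the interaction, 0% of genes changed 1.5-fold, 8.96% of those changed 2-fold and 56.1% of those changed 4-fold were recovered. A small dependence could thus be missed. The values ran from -0.34 ± 0.33 in MACROD2 to 0.37 ± 0.22 in WWOX, with adjusted p of 0.930 or more. The interaction was 0.19 ± 0.13 in FHIT, 0.12 ± 0.15 in IMMP2L, 0.02 ± 0.11 in NAALADL2 and -0.06 ± 0.12 in PDE4D.

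The same comparisons were made in the 200-kb steps, of which 33 in these genes could be tested. No step was called for the hyperactive effect (background 0.143% of steps), the re-engineering effect (0.99%) or the interaction (0.00952%) in the quasi-Poisson model. At an unadjusted p under 0.05 there were 6, 3 and 2 steps, and limma voom called 1, 0 and 0 (backgrounds of 0.981%, 3.72% and 0.0286%). For the hyperactive effect 1 step was called with a replicate block as well (0.971%) and 1 with the steps shifted by 100 kb (0.178%). For the hyperactive effect 25 of the 33 values were below 0, including 6 of 7 in NAALADL2, from -0.58 to 0.12, and 4 of 4 in IMMP2L, from -0.36 to -0.12. The median over the 33 steps was -0.21, against -0.00431 over all steps tested, where each gene too short to cut was 1 step. Of the MACROD2 steps 1 of 10 held enough sites to be tested.

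The shallow libraries held 47 sites in the 6 genes at 41 distinct positions. Of these positions 20 were also listed in a deep library, and 5 in 2 or more shallow ones. By gene there were 11 sites in FHIT, 10 in NAALADL2, 9 in PDE4D, 8 in WWOX, 8 in IMMP2L and 1 in MACROD2. At this depth a single site decides much of a library's value.

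With the short transposon the 3 short_PB libraries held 9, 6 and 9 sites in the 6 genes and the 3 short_hyPB libraries 4, 2 and 6. At the rate of WT_PB, 52.8 sites would be found in short_PB, against 24 listed, and at the rate of WT_hyPB 36.7 in short_hyPB, against 12. The short transposon effect was the mean of short_PB against WT_PB and short_hyPB against WT_hyPB, and the members other than MACROD2 held enough sites for it. Genes entered this test, and the symmetric and piggyBat ones, by counts that come almost wholly from the deep libraries, so a gene dense there could pass with few shallow sites, and medians over the tested genes are no neutral reference. Without any filter on counts, all 19974 protein-coding genes together held 97.5% of the number at the WT_PB rate in short_PB and 92.1% of that at the WT_hyPB rate in short_hyPB. For the 314 genes of 500 kb and more, the 6 included, it was 58.1% and 53.8%, and for the 6 genes 45.4% and 32.7%. These are sums, to which a few dense genes can add much. The median relative density per gene over the 314 long genes was 0.204 in short_PB and 0 in short_hyPB. Over the 6 genes it was 0.343 and 0.169, so by that measure the 6 were not lower. NAALADL2 held 0, 2 and 1 sites in short_PB and 0, 1 and 5 in short_hyPB, and its log2 change was -1.51 ± 0.48 (adjusted p = 0.0502). FHIT held 2, 0 and 2, then 1, 1 and 0, with -1.55 ± 0.57 (adjusted p = 0.110). PDE4D held 3, 2 and 2, then 1, 0 and 0, with -1.64 ± 0.65 (0.143). IMMP2L had -1.33 ± 0.67 (0.244) and WWOX -0.19 ± 0.57 (0.833).

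None of these 5 was called in the quasi-Poisson model, against a background of 4.92% of 1239 genes (0.404% called lower). The count at an unadjusted p under 0.05 was 4, limma voom called 4 (background 31.2%, and 28.7% with a replicate block, which called 4), and the stricter filter called 2 (28.3%). NAALADL2 passed without WT_hyPB replicate 2 (-1.52, adjusted p = 0.0499) and without short_hyPB replicate 3 (-2.28, 0.0282), the library that held 5 of its 6 short_hyPB sites. The called genes were 56 higher and 5 lower in the quasi-Poisson model but 112 higher and 274 lower with limma voom. The median over the tested genes was -0.83, and with it as scale WWOX turned to 0.64. Of the other fragile-site genes 15 were tested and 1 was called, lower, which was LRP1B.

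With the symmetric transposon the 6 genes held 0, 0 and 2 sites in the sym_rePB libraries and 1, 1 and 1 in sym_rehyPB. At the rates of the deep groups with the same transposase 17.5 and 21.5 would be found, so the listed sites were 12.6% of that number over both groups, against 44.2% for the 314 long genes and 94.9% for all protein-coding genes. These too are sums. The median relative density per gene over the 314 long genes was 0 in sym_rePB and 0 in sym_rehyPB. Over the 6 genes it was 0 and 0.085, so by that measure the 6 were not lower. FHIT held 3 of the 5 sites and WWOX and IMMP2L 1 each. NAALADL2 had none over the 6 libraries, against 11.5 at the deep rate, and PDE4D none against 9.41. With a floor of 3 sites over the 6 pooled libraries, NAALADL2 would be at least 3.85-fold lower and PDE4D at least 3.14-fold lower than with the wild-type transposon. That bound was set only where no site was listed, takes the deep rate as fixed and leaves out the spread between libraries. The upper limit of the exact 95% Poisson interval for a count of 0 is higher than this floor. The quasi-Poisson model gave wider 95% intervals of the log2 change, -6.44 to -0.78 in NAALADL2 and -6.19 to -0.53 in PDE4D. Neither gene was called. For MACROD2, also at 0, the deep rate gives 1.25 sites, so a difference was not detectable.

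The symmetric transposon effect was tested in FHIT, IMMP2L, NAALADL2 and PDE4D, while WWOX and MACROD2 held too few sites. The quasi-Poisson model called 0, against a background of 11.6% of 259 genes, of which 30 were higher and 0 lower, whereas limma voom called 41 higher and 82 lower. Unadjusted p was under 0.05 in 2, and limma voom called 3 members (background 47.5%, and 47.9% with a replicate block, which called 3). The adjusted p was 0.159 for NAALADL2, 0.204 for PDE4D, 0.211 for IMMP2L (log2 change -2.14 ± 1.2) and 0.236 for FHIT (-1.20 ± 0.75). With the median over the tested genes, -1.34, as scale, FHIT turned to 0.14. Of the other fragile-site genes 10 were tested and 0 called.

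The piggyBat libraries held 4, 0 and 2 sites in the 6 genes, against 44.2 at the WT_PB rate, which is 13.6% of that number. It was 32.1% for the 314 long genes and 124% for all protein-coding genes. These are sums, to which a few dense genes can add much. The median relative density per gene in WT_PBat was 0 over the 314 long genes (highest 7.73) and 0.115 over the 6. By that measure the 6 genes were not lower than long genes. Replicate 1 held 1 each in FHIT, WWOX, IMMP2L and NAALADL2, and replicate 3 held 1 each in FHIT and PDE4D. In WT_PBat against WT_PB the log2 change was -3.21 ± 1.2 in NAALADL2 (1 site, adjusted p = 0.243), -2.74 ± 1.2 in PDE4D (1 site, 0.396), -2.33 ± 1.2 in IMMP2L (1 site, 0.471), -1.97 ± 0.91 in FHIT (2 sites, 0.466) and -1.45 ± 1.2 in WWOX (1 site, 0.471). The quasi-Poisson model called 0 of 5 members, against 5.94% of 1381 genes, and MACROD2 held too few sites. The called genes were 82 higher and 0 lower, but 203 higher and 343 lower with limma voom. Unadjusted p was under 0.05 in 2, and limma voom called 4 (background 39.5%, and 34.9% with a replicate block, which called 4). Of the other fragile-site genes 15 were tested and 0 called.

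No member held enough sites for WT_PBat against short_PB, the comparison of libraries at like depth, in which 25 genes were tested and 60% were called. The 6 genes held 24 sites in short_PB and 6 in WT_PBat, relative densities of 0.312 (exact 95% Poisson interval 0.200 to 0.464) and 0.0932 (0.0342 to 0.203). The 2 intervals overlap slightly, and they leave out the spread between libraries. In the steps 4 members' steps were tested for the short transposon and 8 for piggyBat, and 0 were called in each, against 5.51% and 6.39% of steps. None had an unadjusted p under 0.05, and limma voom called 2 in each (backgrounds of 20.9% and 29.8%). With a replicate block it called 2 and 0 (20.4% and 26.9%).

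Sites have an orientation, the strand on which the reported transcript runs away from the insertion. In 4 genes sites that report in the antisense direction of the gene were in excess. The log2 odds of sense, relative to the strand balance of each library, were -0.62 ± 0.08 in IMMP2L (adjusted p = 2e-10), -0.35 ± 0.07 in FHIT (4.5e-06), -0.31 ± 0.05 in NAALADL2 (2e-06) and -0.29 ± 0.06 in PDE4D (4.7e-05), in a quasi-binomial model with Benjamini-Hochberg adjustment over 9585 genes. MACROD2 had -0.34 ± 0.17 (0.0653) and WWOX -0.10 ± 0.11 (0.406). Such a call was common, with a background of 69.9% of genes, so 4 of 6 is near the background.

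The pooled sense share over the deep libraries was 39.9% in IMMP2L, 44.2% in FHIT, 44.5% in NAALADL2 and 45.2% in PDE4D, and each of these genes was below 50% in 12 of 12 libraries. In WWOX the share ran from 36.7% to 59.3% and in MACROD2 from 18.5% to 69.2%, each below 50% in 7 of 12 libraries. Over 7842 protein-coding genes of known strand with 50 or more sites the median share was 35.1%, and over the 232 of these of 500 kb and more it was 44.1%. The FHIT, NAALADL2 and PDE4D shares lay just above that second median and the IMMP2L share below it.

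MACROD2 differed most between groups in this measure. Its sense share was 57.1%, 62.5% and 50% in the WT_PB libraries, 41.0%, 33.3% and 47.2% in WT_rePB, 18.5%, 25% and 26.5% in WT_hyPB and 69.2%, 44.4% and 58.1% in WT_rehyPB. The WT_hyPB libraries lay below all others, but replicates 1 and 2 of that group share 22 of their 27 sites each, and the libraries hold 13 to 39 stranded sites. The hyperactive effect on the log2 odds was -0.60 ± 0.34 and the re-engineering effect 0.57 ± 0.34, neither called (adjusted p = 1.00 and 0.989). Over the 6 genes 0 were called for either effect, none had an unadjusted p under 0.05, and the background was 0% of genes, with 322 and 468 genes at an unadjusted p under 0.05. Whether the hyperactive effect on orientation depended on re-engineering was not tested.

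**Figure D5:**
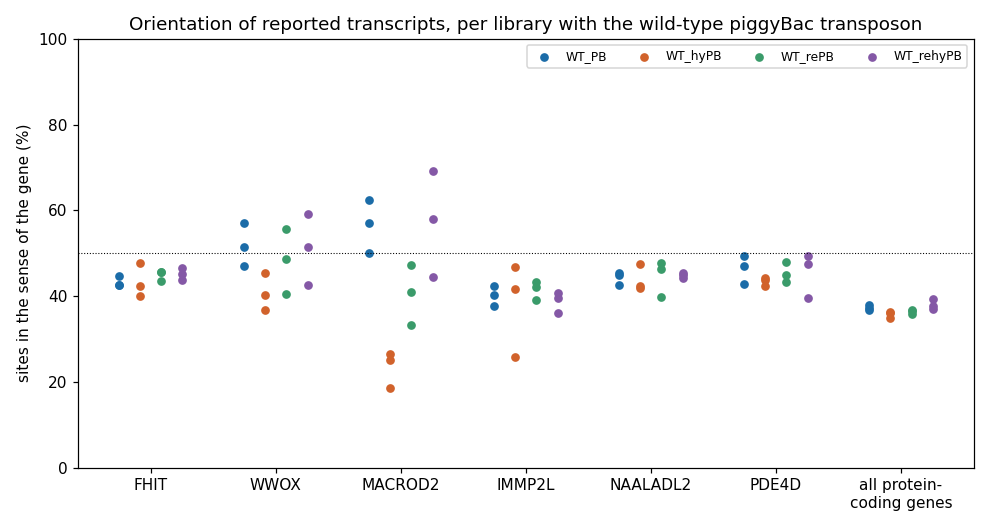
Share of sites whose reported transcript runs in the sense of the gene, in percent (vertical axis), for each gene and for all protein-coding genes of known strand. Points are the 12 deep libraries, coloured by group, and the dotted line marks 50%. IMMP2L, FHIT, NAALADL2 and PDE4D lie below 50% in 12 of 12 libraries, and MACROD2 runs from 18.5% in WT_hyPB to 69.2% in WT_rehyPB.

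For each gene the 2 long genes with the most similar pattern over the 9 group means were named, by Pearson's r of log2 relative density among the 314 genes. IMMP2L was closest to MCTP1 (r = 0.985) and STARD13 (0.959), PDE4D to TRHDE (0.984) and TBC1D5 (0.972), and NAALADL2 to NRG1 (0.972) and PTPRM (0.967). FHIT was closest to BCAS3 (0.970) and LSAMP (0.967), MACROD2 to MYT1L (0.965) and ANXA8 (0.957), and WWOX to KCNMA1 (0.943) and TENM2 (0.938). These are the highest of many correlations over 9 points that share the split between deep and shallow libraries, and they are given as a description.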

How the data were processed

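Each library was deposited by the authors as a headerless list of peaks, called per sample. Its columns hold the summed coverage and the peak height, a signal that the authors' files do not scale to library size. No listed height was under 5. Per the submitters' processing notes, cutadapt 3.4, HISAT2 2.2.1.0 and the hg38 and GRCh38.p5 builds were used. The peak caller is not given in the sources used here. PCR reads carry no molecular identifiers. The exact Poisson intervals cover the counting error of distinct sites only and leave out the spread between libraries.

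A site was the 5′ edge of a peak, moved by 3 bases on the minus strand, and was counted once per library. Gene bounds and promoter sequences came from RefSeq on GRCh38. The strand was known for 15813 of 19974 genes. Site counts were fitted with a quasi-Poisson log-rate model with the library total as offset, a pseudo-site of 0.5, and dispersion shrunk with limma 3.58.1 in R 4.3.3 and floored at 1. For the members it lay at that floor. Genes or steps with 50 or more sites over the libraries compared and 2 or more expected per group were tested, with Benjamini-Hochberg adjustment over all of them. Orientation was fitted with a quasi-binomial model for genes with 50 or more sites. On simulated data for the hyperactive effect (9414 genes) 26.9% of genes changed 1.5-fold and 100% of those changed 4-fold were recovered. For the short transposon effect (1239 genes) it was 2.99% and 51.5%, and for piggyBat against piggyBac (1381 genes) 0% and 27.3%. The changed genes were drawn at random from all genes tested, so these shares do not describe the members.

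All 6 genes are named for each measure, with values where enough sites allowed the test. Of the other fragile-site genes the lowest and highest are named, of like genes 2 per member, of steps the densest and the least dense. Sums of sites over genes without a filter on counts were added after seeing the data. The members and lists were chosen with earlier results of these data known. Same-numbered libraries did not deviate together (r from -0.03 to 0.09 over 18 pairs), so numbers were not used to pair them. Alternatives were limma voom with and without a replicate block, other filters, scales, height minimums and site definitions, shifted steps, averaged linked libraries and each library left out. Analysis used Python 3.11.15.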

Additional observations from a re-analysis of the deposited data

How the results depend on the processing

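Counts of 0 to 5 sites per gene in a shallow library limit what could be tested there. In what follows the share of all features called stands in brackets. For the hyperactive effect 1 member was called in the main analysis (0.489%), 2 with limma voom (1.32%) and 2 with limma voom and a replicate block (1.27%). The stricter filter of 500 sites and 5 expected, which MACROD2 did not pass, also called 2 (7.26%), the second in each case being IMMP2L. The count was 0 with peaks of height 10 or more (0.224%) and 0 with the tallest sites in equal number (0.109%), and 0 to 1 with a library left out. For the short transposon 0 members were called (4.92%), against 4 with limma voom (31.2%), 4 with the replicate block (28.7%) and 2 with the stricter filter (28.3%). With a library left out it was 0 to 1. For the symmetric transposon it was 0 (11.6%), against 3 with limma voom (47.5%) and 3 with the block (47.9%). For piggyBat against piggyBac it was 0 (5.94%), against 4 (39.5%) and 4 (34.9%). Of the steps 0 were called for the hyperactive effect (0.143%), against 1 with limma voom (0.981%), 1 with the block (0.971%) and 1 with shifted steps (0.178%). It was 0 (5.51%) against 2 with limma voom (20.9%) and 2 with the block (20.4%) for the short transposon. For piggyBat it was 0 (6.39%) against 2 with limma voom (29.8%) and 0 with the block (26.9%). For genes the replicate block gave member counts equal to those of voom without it, and the cause of the differences between models was not tested. Over all genes the main counts of 46, 107, 1, 61, 30, 82 and 15 (hyperactive, re-engineering, interaction, short, symmetric, piggyBat against WT_PB and against short_PB) ran over all settings from 9 to 124, 58 to 368, 0 to 7, 11 to 386, 1 to 124, 12 to 546 and 9 to 29. The number of genes tested differed between settings, so these counts are not shares. The 11 for the short transposon were of 41 genes tested, against 61 of 1239 in the main analysis. The 1 for the symmetric transposon was of 16, against 30 of 259, and the 12 for piggyBat were of 175, against 82 of 1381. For re-engineering, 30 calls were higher and 77 lower, against 12 and 103 with the median of all genes as scale and 190 and 178 with limma voom, and for piggyBat against short_PB 11 and 4, against 8 and 9.

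Some members changed sign. For the hyperactive effect MACROD2 ran from -0.12 to 0.12 with a library left out, below 0 without WT_PB replicate 3, WT_rePB replicate 2 or WT_rehyPB replicate 3, and NAALADL2 to 0.083 ± 0.76 when the short and symmetric pairs were included. For re-engineering FHIT turned to 0.0089 with peaks of height 10 or more, and NAALADL2 ran from -0.0391 to 0.0026 with a library left out, above 0 without WT_PB replicate 2. The interaction in NAALADL2 turned to -0.052 with the median scale and ran from -0.027 to 0.051 with a library left out, below 0 without WT_PB replicate 2, WT_rePB replicate 1 or WT_rehyPB replicate 2, and in PDE4D to 0.072 with peaks of height 10 or more and 0.037 with the tallest sites. The short transposon effect in WWOX turned to 0.11 with limma voom, 0.30 with the replicate block, 0.64 with the median scale, and ran from -0.73 to 0.062 with a library left out, above 0 without short_PB replicate 2 or short_hyPB replicate 2. The symmetric effect in FHIT turned to 0.14 with the median scale. The count of members with an orientation call was 4 under each alternative run.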

Other observations

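The 500 kb on either side of each gene were counted as well. MACROD2 was less dense than both flanks in 12 of 12 deep libraries, at 0.0894 ± 0.017 (SD, n = 12) against 0.904 ± 0.16 on its 5′ side and 0.574 ± 0.10 on its 3′ side. FHIT and WWOX were less dense than the 5′ flank (1.43 ± 0.13 and 0.810 ± 0.13) and denser than the 3′ flank (0.280 ± 0.077 and 0.0882 ± 0.050) in 12 of 12. PDE4D was less dense than its 5′ flank, at 1.08 ± 0.096, in 12 of 12 and than its 3′ flank, at 0.814 ± 0.12, in 4 of 12. NAALADL2 was less dense than its 3′ flank, at 0.530 ± 0.11, in 0 of 12 and than its 5′ flank, at 1.10 ± 0.17, in 4 of 12. IMMP2L was less dense than its 5′ flank, at 0.826 ± 0.088, in 0 of 12 and than its 3′ flank, at 0.837 ± 0.12, in 3 of 12. These flanks hold other genes, and the differences were not tested.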
